A study of Mus musculus with 6 samples.

Results

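The expression of 52 genes that drive or mark the cell cycle was examined in floated adipocytes of L1L2-FF and L1L2-AKO mice. The genes were taken by symbol, and all 52 were found among the 37384 gene symbols of the count table. They fall into 22 genes of S phase and its entry, 25 genes of G2 and mitosis, and 5 cyclins and cyclin-dependent kinases (CDKs) of G1. RNA was sequenced from adipocytes of inguinal subcutaneous white adipose tissue (scWAT) of male mice at postnatal day 7, in 3 libraries per genotype, each from a pool of 4 mice. L1L2-FF mice (Lats1f/fLats2f/f) carried floxed *Lats1* and *Lats2* alleles without Cre. L1L2-AKO mice (Lats1f/fLats2f/fAdipoqCre) carried the same floxed alleles and Cre driven by the *Adipoq* promoter, so that recombination takes place in cells that express the transgene and is passed on to whatever those cells become. The cells were freed with collagenase and collected by flotation, and a library therefore also holds RNA of any other cell that floated or adhered.

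A cell that divides copies its DNA in S phase and separates the copies in mitosis. In G1, cyclin D with CDK4 or CDK6 and then cyclin E with CDK2 phosphorylate the retinoblastoma family of pocket proteins, which releases E2F transcription factors to switch on replication genes. Later, the MuvB complex with B-MYB and FOXM1 switches on mitotic genes, many through a short promoter element known as the cell cycle genes homology region (CHR). Mature adipocytes are regarded as largely post-mitotic, whereas progenitors, endothelial cells and macrophages of young adipose tissue can divide. LATS1 and LATS2 are the kinases of the Hippo pathway that hold back YAP and TAZ, coactivators known for driving cell cycle genes in many tissues.

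Promoters of cell cycle genes are known for these elements, and their letters were searched in the genes of the set. RefSeq promoter windows on GRCm38.p6 (the assembly of mm10), from 250 bases before to 50 bases after each start, were at hand for 41 of the 52 genes, with 46 windows in all. Searched on both strands were TTTGAA for the CHR, CCAAT for the CCAAT box, and TTTCCCGC, TTTGGCGC, TTTCGCGC or TTTGCCGC for E2F. TTTGAA was in 15 of 20 windows of G2 and mitosis genes (75.0%), in 13.6% of the windows of S-phase genes and in 17.9% of all 32851 windows of the same length. An E2F letter string was in 10 of 22 windows of S-phase genes (45.5%), in 5.0% of those of G2 and mitosis genes and in 2.26% of all windows. CCAAT was in 77.3% and 85.0% of the windows of the respective groups, and in 37.4% of all windows. TTTGAA and CCAAT stood together in 70.0% of the windows of G2 and mitosis genes and in 6.95% of all windows. GGAATG, the core letters of the TEAD element through which YAP and TAZ act, was in 9.09% of the S-phase, 5.0% of the mitotic and 14.7% of all windows. A match describes the letters of a window and not a bound site.

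The 200 bases before the start are printed for the most abundant mitotic genes of the set and for an abundant S-phase gene, and for *Mcm6* and *Cdk1*, which were added after the motif counts were seen because they show the E2F and CHR letters most plainly. Capitals mark E2F, CHR and CCAAT letters on either strand, and neighbouring or overlapping matches run together. The positions are chr7:135716380-135716579 for *Mki67*, chr11:99024190-99024389 for *Top2a*, chr10:69352913-69353112 for *Cdk1* and chr1:128359706-128359905 for *Mcm6*, all on the minus strand, and chr7:102441495-102441694 on the plus strand for *Rrm1*.
Mki67: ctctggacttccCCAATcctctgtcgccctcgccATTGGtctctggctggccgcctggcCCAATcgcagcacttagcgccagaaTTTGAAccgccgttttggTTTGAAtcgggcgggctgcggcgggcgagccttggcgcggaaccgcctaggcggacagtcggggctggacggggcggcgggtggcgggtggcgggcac
Top2a: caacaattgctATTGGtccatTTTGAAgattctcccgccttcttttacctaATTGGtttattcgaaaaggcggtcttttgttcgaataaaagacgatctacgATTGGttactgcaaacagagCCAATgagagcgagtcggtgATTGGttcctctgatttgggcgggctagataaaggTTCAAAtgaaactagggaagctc
Cdk1: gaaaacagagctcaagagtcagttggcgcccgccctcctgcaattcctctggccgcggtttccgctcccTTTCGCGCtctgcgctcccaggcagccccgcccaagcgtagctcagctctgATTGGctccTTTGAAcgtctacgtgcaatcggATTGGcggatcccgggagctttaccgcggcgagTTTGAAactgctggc
Mcm6: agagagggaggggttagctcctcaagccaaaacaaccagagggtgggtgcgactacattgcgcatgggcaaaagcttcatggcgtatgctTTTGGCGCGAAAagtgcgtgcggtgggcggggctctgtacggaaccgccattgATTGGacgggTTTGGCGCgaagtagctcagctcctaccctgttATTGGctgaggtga
Rrm1: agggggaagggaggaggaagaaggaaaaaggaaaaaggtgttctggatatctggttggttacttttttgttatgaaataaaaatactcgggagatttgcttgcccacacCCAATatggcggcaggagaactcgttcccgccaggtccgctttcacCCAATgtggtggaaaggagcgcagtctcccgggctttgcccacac
In *Mki67*, TTTGAA began 116 and 98 bases before the start. In *Cdk1* it began 71 and 15 bases before the start, and an E2F string began 131 bases before. The RefSeq start of *Cdk1* lies inside the gene as GENCODE M21 annotates it, and so does the nearer TTTGAA. In *Mcm6*, TTTGGCGC began 110 and 47 bases before the start, and the former overlaps a match on the other strand. The *Rrm1* window held CCAAT letters without the other strings. None of the strings was in the window of *E2f1*.

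Genotypes were compared by the two-sided quasi-likelihood test of edgeR on TMM-scaled counts, adjusted after Benjamini and Hochberg over the 15674 genes that passed a filter on low counts. Levels are given as TMM-normalized CPM, the count scaled to the size of its library, and a gene is said to rise or fall only where its adjusted p was under 0.05. Totals per library ranged from 30548473 to 32107917 counts. All 52 genes passed the filter and were at 1 CPM or more in each library, the lowest count being 41. Among all genes tested, 16.5% passed the threshold (9.28% were higher and 7.18% lower in libraries labelled L1L2-AKO), and the median log2 fold change was -0.02. The gene-level counts of the targeted genes did not both follow the labels. *Lats1* fell by 1.04 on the log2 scale, whereas *Lats2* stood at 74.9, 85.7 and 68.5 CPM in L1L2-FF and at 96.2, 126 and 135 CPM in libraries labelled L1L2-AKO, with a log2 fold change of 0.64 (edgeR, adjusted p = 0.0278). With a library left out, *Lats2* passed the threshold in 2 of 6 fits (edgeR, adjusted p from 0.0120 without L1L2-AKO replicate 1 to 0.104 without L1L2-AKO replicate 2), at log2 fold changes of 0.55 to 0.78. Its count is uncertain, since 41.2% of its 50-base stretches also occur in *Gm49361*, a gene that overlaps it, and counts per gene do not show the floxed exons by themselves. Directions below therefore compare libraries by their labels. No label says that replicates shared a litter or a day, and p-values measure the spread between these pools of mice.

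Of the 52 genes, 1 passed the threshold. *E2f1*, a transcription factor that activates replication genes, rose 1.75-fold (95% interval 1.26 to 2.44), and no gene of the set fell. Of all genes tested, 16.5% passed. The summed level of the S-phase genes was 675, 443 and 742 CPM in L1L2-FF replicates 1 to 3 and 942, 845 and 654 CPM in replicates 1 to 3 labelled L1L2-AKO. The summed level of the G2 and mitosis genes was 1102, 386 and 1151 CPM in L1L2-FF and 1295, 929 and 618 CPM in libraries labelled L1L2-AKO. Both sums overlapped between genotypes, and in both L1L2-FF replicate 2 was the lowest of the 6 libraries. The sum over the G1 genes lay between 536 and 617 CPM in L1L2-FF and between 512 and 644 CPM in libraries labelled L1L2-AKO. In RNA from a mixture of cells, fewer dividing cells and less of these transcripts per cell cannot be told apart.

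**Figure D1:**
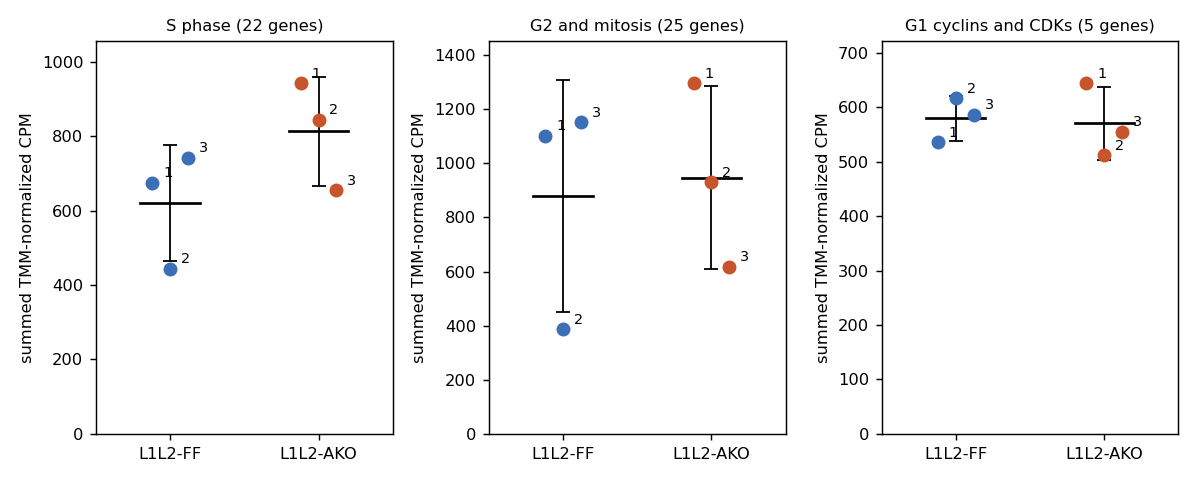
Summed TMM-normalized CPM of the S-phase, G2 and mitosis, and G1 genes in each library (points, numbered by replicate), with the mean (bar) and SD (whiskers) of 3 libraries per genotype. L1L2-FF replicate 2 is lowest in the first and second panels, and the genotypes overlap in all panels.

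The S-phase genes are described first, beginning with their regulators. *E2f1* (ENSMUSG00000027490.17, chromosome 2, 154559407 to 154569892 of mm10 by GENCODE M21, minus strand) was at 18, 12.3 and 19.7 CPM in L1L2-FF and at 35.3, 25.4 and 27 CPM in libraries labelled L1L2-AKO. The genotypes did not overlap for this gene, as for 18% of all genes tested in the same direction. Its log2 fold change was 0.81 (standard error 0.207, adjusted p = 0.0331, edgeR with Benjamini-Hochberg adjustment). Leaving out any 1 library kept the fold change between 0.63 and 0.95. The adjusted p of the edgeR fit was then 0.0419 without L1L2-FF replicate 2 and 0.0378 without L1L2-FF replicate 3. It missed the threshold in the other fits, at 0.0914 without L1L2-FF replicate 1 and at 0.0904, 0.0647 and 0.0766 without replicate 1, 2 or 3 of L1L2-AKO. *E2f2*, a further activator, was between 9.52 and 17.2 CPM in L1L2-FF and between 16 and 18.4 CPM in libraries labelled L1L2-AKO (log2 fold change 0.34, adjusted p = 0.341, edgeR). *E2f7* and *E2f8*, which encode repressors of the same targets, had log2 fold changes of 0.12 and 0.55, and the 95% interval of *E2f8* ran from -0.57 to 1.67. *E2f8* was at 11.0, 2.72 and 13.0 CPM in L1L2-FF, the widest spread of any S-phase gene within a genotype.

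The MCM2 to MCM7 proteins form the helicase that unwinds DNA at the fork, and MCM10 helps to start it. *Mcm2* (ENSMUSG00000002870.8, chromosome 6, 88883474 to 88898780, minus strand) was at 28.4, 20.1 and 37.3 CPM in L1L2-FF and at 53.5, 48.1 and 34.8 CPM in libraries labelled L1L2-AKO. Replicate 3 of the latter lay within the L1L2-FF range, and the log2 fold change of 0.67 did not pass the threshold (standard error 0.242, adjusted p = 0.0988, edgeR). *Mcm4* was at 39.4, 32.5 and 49.0 CPM in L1L2-FF and at 61.4, 61.8 and 47.6 CPM in libraries labelled L1L2-AKO. *Mcm6* was at 48.6, 35.7 and 54.1 CPM in L1L2-FF and at 78.5, 75.7 and 49.8 CPM in libraries labelled L1L2-AKO. In each of these genes L1L2-AKO replicate 3 lay within the L1L2-FF range. The log2 fold changes of *Mcm3*, *Mcm4*, *Mcm5*, *Mcm6*, *Mcm7* and *Mcm10* were 0.62, 0.50, 0.60, 0.56, 0.29 and 0.36, with adjusted p-values from 0.0920 for *Mcm4* to 0.282 for *Mcm10* (edgeR). Without L1L2-FF replicate 3, 4 S-phase genes passed the threshold of edgeR's test, namely *E2f1*, *Mcm2*, *Mcm4* and *Tyms*. The adjusted p-values were then 0.0477 for *Mcm2* and 0.0441 for *Mcm4*.

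Helicase loading and firing need CDC6, CDT1 and the GINS subunit GINS2. *Cdc6*, *Cdt1* and *Gins2* had log2 fold changes of 0.11, 0.51 and 0.22, and none passed the threshold. The count of *Gins2* is uncertain, since 65.4% of its 50-base stretches also occur in *Gse1*, a gene that overlaps it. Of the 52 genes, 13 share at least 10% of such stretches with another gene. *Uhrf1*, which carries DNA methylation through replication, was at 32.3, 18.4 and 40.5 CPM in L1L2-FF and at 56.5, 52.8 and 33.4 CPM in libraries labelled L1L2-AKO (log2 fold change 0.65, adjusted p = 0.187, edgeR).

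PCNA is the clamp that holds the polymerases on DNA. *Pcna* was at 91.1, 65.8 and 83.7 CPM in L1L2-FF and at 99.8, 94.6 and 77.2 CPM in libraries labelled L1L2-AKO, a log2 fold change of 0.18 (edgeR, standard error 0.157, adjusted p = 0.507). Its 95% interval, from -0.19 to 0.54 on the log2 scale, was the narrowest among S-phase genes other than *Cdk2* and *Mcm7*. A pseudogene shares 19.1% of its 50-base stretches. *Rrm1*, the large subunit of ribonucleotide reductase, was at 81.4, 46.0 and 80.3 CPM in L1L2-FF and at 108, 92.2 and 70.6 CPM in libraries labelled L1L2-AKO, and its small subunit *Rrm2* ranged from 21.7 to 66.9 CPM. Their log2 fold changes were 0.38 and 0.34, and that of *Tyms*, thymidylate synthase, was 0.42. The kinase *Cdk2* and its cyclins *Ccne1* and *Ccne2* had log2 fold changes of -0.10, 0.12 and -0.01.

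Over the 22 S-phase genes, 1 rose and 0 fell, against 9.28% and 7.18% of all genes tested, and 5 had an unadjusted p under 0.05 (edgeR). Among all genes tested, the share with an unadjusted p under 0.05 is larger than the 16.5% that passed the adjusted threshold. For example, *Mcm2* had an unadjusted p of 0.0238 and an adjusted p of 0.0988 (edgeR). The exact share is not given here, so 5 of 22 is not read as an excess. The same background applies to such counts in the other lists. The fitted fold change was above 0 for 20 of the 22 and the median was 0.37 on the log2 scale, against 47.9% and -0.02 among all genes tested. The median stayed above 0 with each library left out, from 0.17 without L1L2-FF replicate 2 to 0.55 without L1L2-FF replicate 3. In a separate list of 36 further S-phase genes (polymerase, primase, origin, clamp loader and nucleotide supply genes), 0 passed edgeR's threshold, 3 had an unadjusted p under 0.05 and 32 had a fitted fold change above 0, with a median of 0.24 on the log2 scale. DESeq2 called 1 of these, *Pola1*, the catalytic subunit of DNA polymerase alpha, and limma-voom called 0. These genes are transcribed together in the same cells, so that a count of fitted directions is not a count of independent observations.

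**Figure D2:**
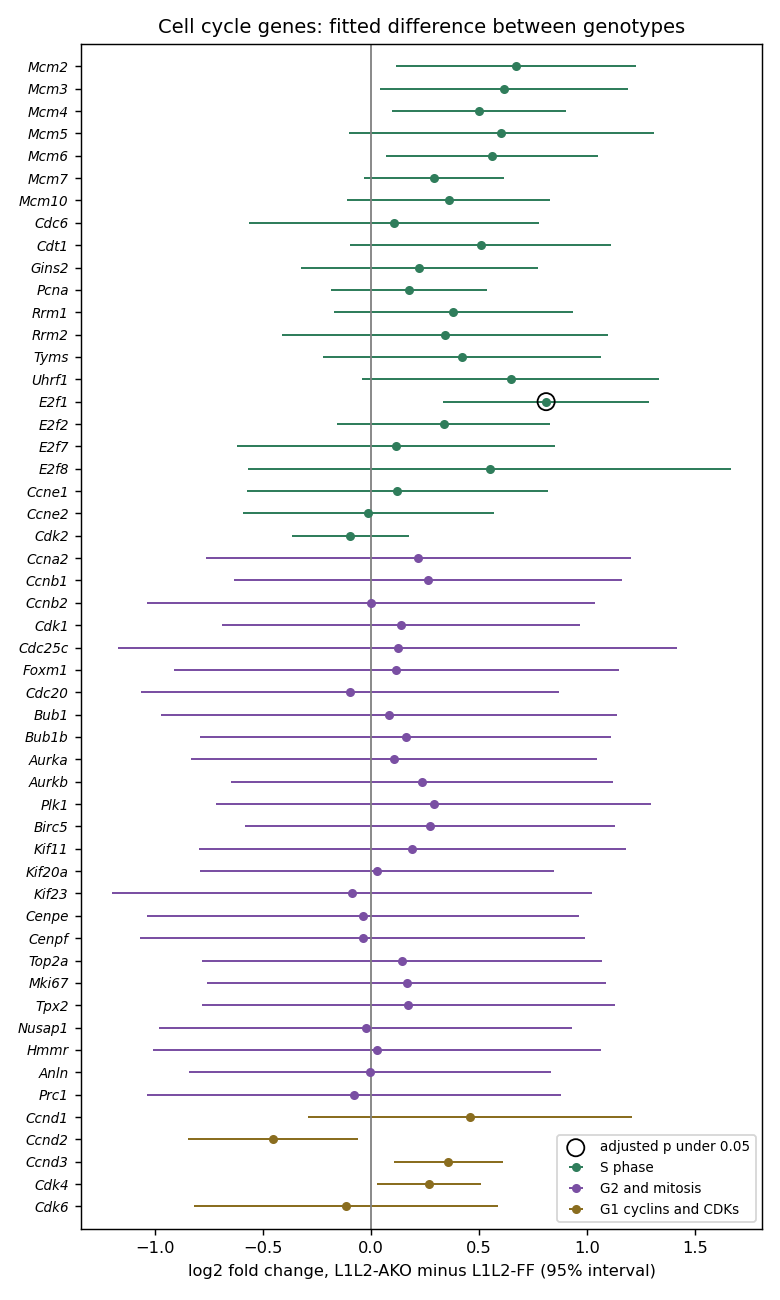
Fitted log2 fold change of each of the 52 genes (points) with its 95% interval (lines), L1L2-AKO minus L1L2-FF. The circled gene, *E2f1*, is the 1 gene past an adjusted p of 0.05; the intervals of all 25 G2 and mitosis genes contain 0.

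None of the 25 genes of G2 and mitosis passed edgeR's threshold, and none had an unadjusted p under 0.05. DESeq2 and limma-voom also called 0. *Mki67* (ENSMUSG00000031004.8, chromosome 7, 135689784 to 135716361, minus strand), whose protein coats mitotic chromosomes and serves as a standard marker of cycling cells, was at 198, 73.7 and 199 CPM in L1L2-FF and at 247, 168 and 112 CPM in libraries labelled L1L2-AKO. *Top2a* (ENSMUSG00000020914.17, chromosome 11, 98992943 to 99024189, minus strand), the topoisomerase that untangles sister chromatids, was at 137, 48.9 and 152 CPM in L1L2-FF and at 165, 122 and 85.1 CPM in libraries labelled L1L2-AKO. In both genes L1L2-FF replicate 2 was the lowest and L1L2-AKO replicate 1 the highest of all 6 libraries, and L1L2-FF replicates 1 and 3 lay above 2 of the 3 libraries labelled L1L2-AKO. The log2 fold change of *Mki67* was 0.17 (standard error 0.402, 95% interval -0.76 to 1.09, adjusted p = 0.827, edgeR). That of *Top2a* was 0.15 (standard error 0.403, 95% interval -0.78 to 1.07, adjusted p = 0.849, edgeR).

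The genes of the mitotic kinase followed the same order. *Cdk1* was at 39.0, 17.6 and 47.8 CPM in L1L2-FF and at 49.95, 38.9 and 26.1 CPM in libraries labelled L1L2-AKO. Its partner *Ccnb1*, cyclin B1, was at 26.5, 8.66 and 25.8 CPM in L1L2-FF and at 30.9, 23.8 and 18.4 CPM in libraries labelled L1L2-AKO, and shares 23.4% of its 50-base stretches with other genes, chiefly a pseudogene. *Ccna2*, cyclin A2, was at 59.9, 19.7 and 64.1 CPM in L1L2-FF and at 75.3, 56.3 and 35.6 CPM in libraries labelled L1L2-AKO. The log2 fold changes of these genes were 0.14, 0.26 and 0.22, below their standard errors of 0.360, 0.390 and 0.428. *Ccnb2* was fitted at 0.00 and *Cdc25c*, the phosphatase that activates CDK1, at 0.12 on the log2 scale. *Foxm1*, the transcription factor of the mitotic program, was at 35, 11.4 and 39.3 CPM in L1L2-FF and at 44.6, 28.2 and 20.1 CPM in libraries labelled L1L2-AKO (log2 fold change 0.12, adjusted p = 0.893, edgeR).

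The kinases and checkpoint genes *Plk1*, *Aurka*, *Aurkb*, *Bub1* and *Bub1b* had log2 fold changes of 0.29, 0.11, 0.24, 0.08 and 0.16. *Birc5*, the survivin subunit that works with aurora B, was fitted at 0.27, and *Cdc20*, which activates the anaphase-promoting complex (APC/C), at -0.10. The kinesin genes *Kif11*, *Kif20a* and *Kif23* were fitted at 0.19, 0.03 and -0.09, and the kinetochore genes *Cenpe* and *Cenpf* at -0.04 each. The spindle and midzone genes *Tpx2*, *Nusap1*, *Hmmr* and *Prc1* were fitted at 0.17, -0.03, 0.03 and -0.08, and the contractile ring gene *Anln* at 0.00. *Prc1* was at 63.8, 21.3 and 65.2 CPM in L1L2-FF and at 65.3, 45.4 and 31.4 CPM in libraries labelled L1L2-AKO. Over the 25 genes the adjusted p-values lay between 0.679 and 1.00, and 18 fitted fold changes were above 0 and 7 below, with a median of 0.12 on the log2 scale. A difference of moderate size was not detectable in these genes: the 95% interval of the fold change reached a 2-fold rise in 17 of the 25 and a fall to 0.5 times in 8.

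The spread within each genotype was the largest feature of the mitotic genes. L1L2-FF replicate 2 had the lowest level of its genotype in 25 of 25 genes, at 0.231 to 0.439 times the mean of the other two L1L2-FF libraries (median 0.331). Among all genes tested it was the lowest in 36.8%, and under 0.5 times that mean in 4.23%. In libraries labelled L1L2-AKO, replicate 1 was the highest and replicate 3 the lowest in 25 of 25 genes, against 18.9% of all genes tested, and replicate 3 was at 0.335 to 0.634 times replicate 1. Both orders held in 25 of 25 mitotic genes, in 16 of 22 S-phase genes and in 7.99% of all genes tested. The median SD within a genotype was 0.736 on the log2 scale for the mitotic genes, 0.386 for the S-phase genes and 0.214 over all genes tested. Of 52 further mitotic genes in a separate list, 50 showed both orders, 0 passed the threshold of edgeR, DESeq2 or limma-voom, and 1 had an unadjusted p under 0.05. These counts describe genes that share their libraries, and chance was not tested.

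**Figure D3:**
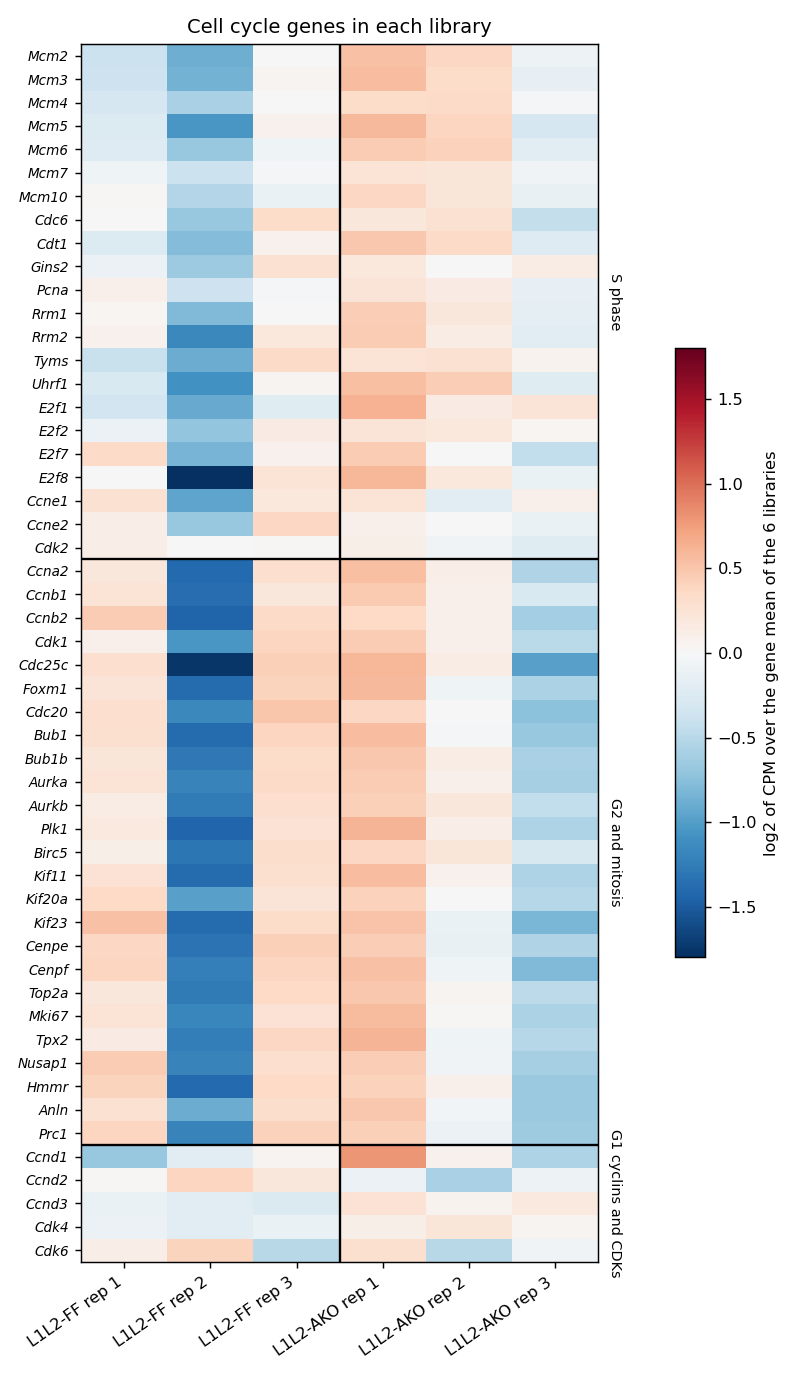
Log2 of the CPM of each gene over its mean in the 6 libraries (colour), with genes in rows by group and libraries in columns. L1L2-FF replicate 2 is the lowest of its genotype through the 22 S-phase and 25 mitotic rows, and L1L2-AKO replicates 1 to 3 descend in all 25 mitotic rows.

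The direction of the mitotic genes depended on which library was left out. All 25 fitted fold changes were below 0 without L1L2-FF replicate 2, with a median of -0.26 on the log2 scale, and 22 of 25 were below 0 without L1L2-AKO replicate 1, with a median of -0.22. All 25 were above 0 without L1L2-FF replicate 1, without L1L2-FF replicate 3 or without L1L2-AKO replicate 3, with medians of 0.29, 0.37 and 0.36. Without L1L2-AKO replicate 2 the median was 0.11. In none of these fits did a mitotic gene pass the threshold, the lowest adjusted p being 0.300 without L1L2-FF replicate 2. The ratio of the summed S-phase to the summed mitotic level was 0.613, 1.15 and 0.645 in L1L2-FF and 0.727, 0.909 and 1.06 in libraries labelled L1L2-AKO. The genotypes overlapped in this ratio, and the 2 libraries with the lowest mitotic sums, L1L2-FF replicate 2 and L1L2-AKO replicate 3, had the highest ratios. The mitotic sum is the denominator, so a low mitotic sum by itself raises the ratio.

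**Figure D4:**
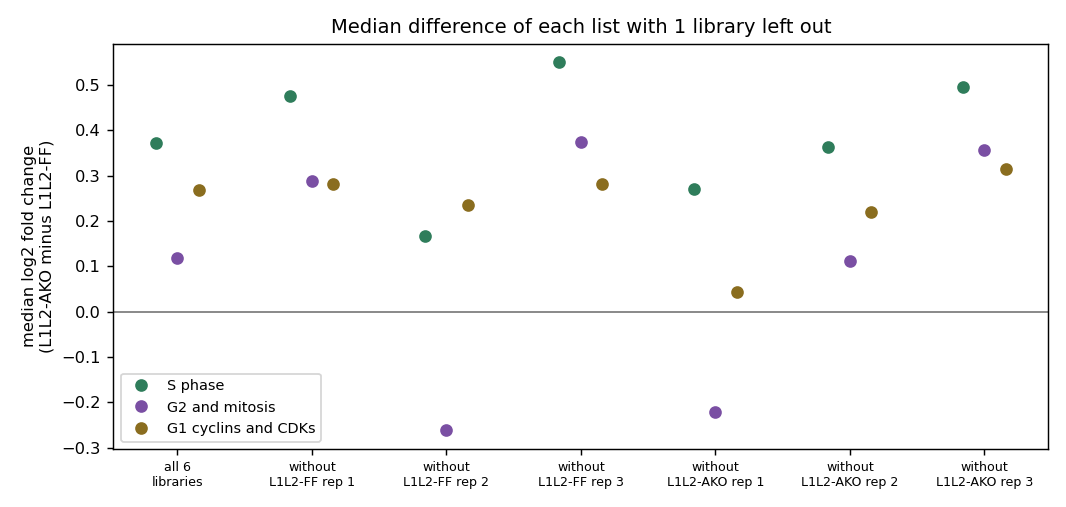
Median log2 fold change (L1L2-AKO minus L1L2-FF) of the S-phase, G2 and mitosis, and G1 genes with all 6 libraries and with 1 of them left out (x axis). The S-phase median stays between 0.17 and 0.55, whereas the mitotic median is -0.26 without L1L2-FF replicate 2 and 0.37 without L1L2-FF replicate 3.

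Of the 5 G1 genes, 0 showed both orders seen in the mitotic genes. L1L2-FF replicate 2 was the lowest of its genotype in 1, *Cdk4*, and L1L2-AKO replicates 1 to 3 descended in 1, *Ccnd1*. *Ccnd2*, cyclin D2, was the most abundant gene of the set, at 270, 346 and 305 CPM in L1L2-FF and at 247, 177 and 248 CPM in libraries labelled L1L2-AKO. *Ccnd3*, cyclin D3, was at 120, 114 and 109 CPM in L1L2-FF and at 156, 136 and 148 CPM in libraries labelled L1L2-AKO. *Cdk4*, the kinase that D-type cyclins activate, was at 96.1, 89.2 and 95.3 CPM in L1L2-FF and at 111, 121 and 107 CPM in libraries labelled L1L2-AKO. The genotypes did not overlap in these genes, with *Ccnd2* lower and *Ccnd3* and *Cdk4* higher in libraries labelled L1L2-AKO, as for 36.4% of all genes tested in either direction. Their log2 fold changes of -0.45, 0.36 and 0.27 had adjusted p-values of 0.112, 0.0601 and 0.122 (edgeR) and unadjusted ones under 0.05. Of these, DESeq2 called *Ccnd3* at an adjusted p of 0.0300, and limma-voom called none.

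*Ccnd1*, cyclin D1, a gene often studied as a YAP target, was at 45.2, 63.3 and 74.7 CPM in L1L2-FF and at 126, 76.5 and 49.2 CPM in libraries labelled L1L2-AKO. Its level in libraries labelled L1L2-AKO thus ran from inside the L1L2-FF range to above it, and the log2 fold change was 0.46 (standard error 0.326, adjusted p = 0.395, edgeR), or 0.04 without L1L2-AKO replicate 1. *Cdk6* was at 2.57 to 4.82 CPM in all libraries. Per kilobase of exon, the mean level over the 6 libraries was 31.7 CPM for *Cdk4* and 0.260 CPM for *Cdk6*, the kinase that shares its cyclins. Of the D-type cyclins, *Ccnd2* had 28.2 CPM per kilobase, *Ccnd1* 15.4 and *Ccnd3* 14.9. The counts of *Cdk4* and *Ccnd1* are uncertain, since 17.0% and 21.6% of their 50-base stretches also occur in the overlapping genes *Tspan31* and *LTO1*.

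CDK inhibitors, which stop the kinases above, were examined as a separate list of 7 genes, 6 of which passed the filter. *Cdkn1c*, which encodes the inhibitor p57 of G1 and S-phase CDKs (ENSMUSG00000037664.13, chromosome 7, 143458339 to 143461050, minus strand) was at 94.6, 76.2 and 68.0 CPM in L1L2-FF and at 378, 497 and 505 CPM in libraries labelled L1L2-AKO. It rose 5.77-fold (log2 fold change 2.53, standard error 0.183, adjusted p = 0.000303, edgeR with Benjamini-Hochberg adjustment). *Cdkn2c*, which encodes p18 (ENSMUSG00000028551.14, chromosome 4, 109660876 to 109667189, minus strand), an inhibitor of CDK4 and CDK6, was at 231, 189 and 294 CPM in L1L2-FF and at 79.5, 55.1 and 61.2 CPM in libraries labelled L1L2-AKO. It fell by 1.87 on the log2 scale (edgeR, standard error 0.204, adjusted p = 0.00119). The genotypes were far apart in both genes, and both calls held with each library left out, with log2 fold changes of 2.42 to 2.67 and of -2.03 to -1.69. A transcript that overlaps *Cdkn1c* shares 24.9% of its 50-base stretches and has no count of its own here.

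**Figure D5:**
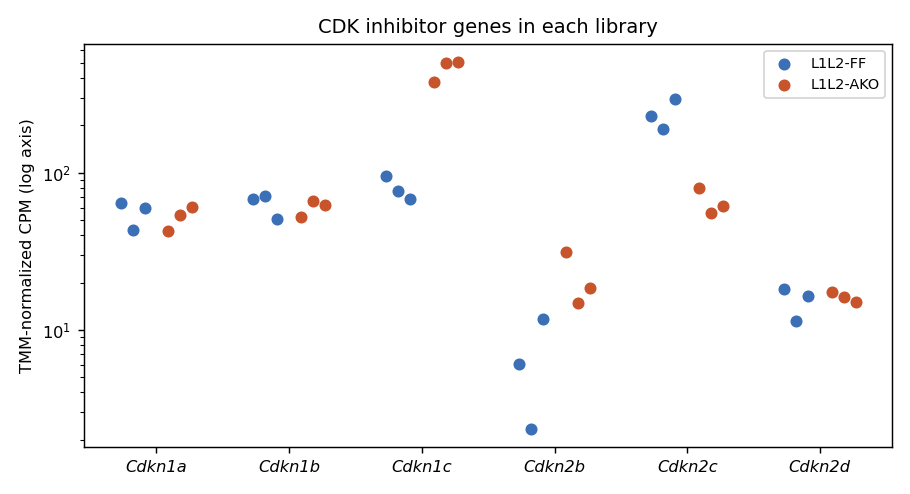
TMM-normalized CPM (log axis) of 6 CDK inhibitor genes in each library, L1L2-FF at left and L1L2-AKO at right within a gene, replicates 1 to 3 from left to right. *Cdkn1c* is higher and *Cdkn2c* lower in every L1L2-AKO library than in every L1L2-FF library, and *Cdkn1a*, *Cdkn1b* and *Cdkn2d* overlap.

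*Cdkn2b*, which encodes the CDK4 and CDK6 inhibitor p15, was at 6.06, 2.35 and 11.7 CPM in L1L2-FF and at 31.5, 14.7 and 18.4 CPM in libraries labelled L1L2-AKO. The genotypes did not overlap, as for 18% of all genes tested in the same direction. The log2 fold change of 1.68 had a standard error of 0.524 and an adjusted p of 0.0634 (edgeR). DESeq2 and limma-voom called it, at adjusted p-values of 0.00331 and 0.0434, and so did edgeR without L1L2-FF replicate 3, at 0.0256. *Cdkn1a* (p21) was at 64.2, 43.0 and 59.8 CPM in L1L2-FF and at 42.8, 53.6 and 60.2 CPM in libraries labelled L1L2-AKO, *Cdkn1b* (p27) ranged from 50.5 to 71.0 CPM over the 6 libraries and *Cdkn2d* (p19) from 11.3 to 18.3 CPM. Their log2 fold changes were -0.09, -0.07 and 0.08, with adjusted p-values of 0.783, 0.815 and 0.818 (edgeR). *Cdkn2a* had 0 to 5 counts in a library and was not tested. Of the 6 inhibitor genes tested, 1 thus rose and 1 fell, against 9.28% and 7.18% of all genes tested.

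The pocket proteins that CDKs inactivate were not called. *Rb1* was at 104, 76.7 and 118 CPM in L1L2-FF and at 118, 88.6 and 138 CPM in libraries labelled L1L2-AKO, with a log2 fold change of 0.21 (adjusted p = 0.547, edgeR). *Rbl1* (p107) ranged from 27.8 to 39.4 CPM and *Rbl2* (p130) from 45.4 to 65.6 CPM over the 6 libraries, with log2 fold changes of -0.04 and 0.02. Of the 15 genes of pocket proteins, other E2F and DP factors and MuvB, 0 passed edgeR's threshold and 0 had an unadjusted p under 0.05, and DESeq2 and limma-voom called 0. Without L1L2-FF replicate 2, edgeR called *Lin9*, a MuvB subunit named here after its values were seen, as lower (adjusted p = 0.0332). *Mybl2*, which encodes the B-MYB partner of MuvB, was at 9.93, 3.87 and 11.8 CPM in L1L2-FF and at 16.2, 12.3 and 8.34 CPM in libraries labelled L1L2-AKO, the same order of libraries as the mitotic genes. Of 16 genes of the ubiquitin ligases APC/C and SCF, which end mitosis and S phase by degrading cyclins and inhibitors, 0 passed edgeR's threshold, 2 had an unadjusted p under 0.05, and DESeq2 and limma-voom called 0.

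Levels of cell type markers differed between genotypes and between replicates. Counts of called markers stand against 9.28% of all genes tested that rose and 7.18% that fell. A change in the share of a cell type and a change in its transcripts per cell cannot be told apart here. The adipocyte label was checked with *Fabp4*, at 6211 to 9055 CPM, and *Adipoq*, at 695 to 2396 CPM, although 4 of 11 adipocyte markers fell and 0 rose, with sums of 16222 to 19828 CPM in L1L2-FF and 12031 to 14597 CPM in libraries labelled L1L2-AKO. All 14 macrophage markers rose (8 without L1L2-FF replicate 1 and 9 without L1L2-AKO replicate 2), *Mrc1* and *Lyz2* being the most abundant, and their sum was 371, 543 and 280 CPM in L1L2-FF and 1045, 1158 and 1037 CPM in libraries labelled L1L2-AKO. The genotypes did not overlap in any of the 14 macrophage markers, against 18% of all genes tested that did not overlap in the same direction. The endothelial sum was 2735, 2517 and 2039 CPM in L1L2-FF and 2564, 2054 and 1186 CPM in libraries labelled L1L2-AKO, and 1 of 10 markers fell and 0 rose. The sum of red cell markers was 2947 CPM in L1L2-FF replicate 2 and 1522 to 1801 CPM in the other libraries, and the Schwann cell sum was 1296 CPM in that replicate, 498 and 810 CPM in the other L1L2-FF libraries and 161 to 410 CPM in libraries labelled L1L2-AKO, where 4 of 7 markers fell. The part of these cells in the cell cycle levels was not tested.

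Other cells that can divide were also represented. Mural cell markers summed to 1376, 1335 and 1024 CPM in L1L2-FF and 1035, 993 and 772 CPM in libraries labelled L1L2-AKO (1 of 7 rose, 2 fell). The mural and endothelial sums thus had the order of the mitotic genes within L1L2-AKO and not within L1L2-FF. Progenitor markers summed to 473 to 643 and 438 to 540 CPM (1 of 10 rose, 2 fell). For the mural and progenitor counts the background is again 9.28% of all genes tested that rose and 7.18% that fell. T and B cell markers summed to 7.83 to 22.9 and 12.4 to 24.4 CPM, neutrophil and mast cell markers to 47.2 to 59.4 and 44.8 to 74.8 CPM, and skeletal muscle markers to 10.9 to 18.2 and 2.76 to 8.97 CPM, and none of these lists held a called gene in edgeR's test. With a library left out, 3 to 6 adipocyte, 1 to 5 Schwann cell and 0 to 4 mural markers were called lower, and 3 T and B cell markers were called higher without L1L2-FF replicate 2 and 2 skeletal muscle markers lower without L1L2-AKO replicate 3. Epithelial markers summed to at most 4.13 CPM and were not tested. No marker was at 0 in all 6 libraries, and *Ly6g* was at 0 in 4 of them.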

How the data were processed

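mRNA of floated adipocytes was measured in 3 L1L2-FF and 3 L1L2-AKO libraries, each a pool of 4 mice, grouped by the submitters' labels. The submitters' processing notes name mm10, HISAT2 2.1.0 and StringTie 1.3.5, and the authors deposited raw counts per gene symbol. The annotation, counting program and strand setting are not given in the sources used here, so reads of overlapping genes cannot be told apart.

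Counts were tested with edgeR 4.0.16 in R 4.3.3 (filterByExpr, minimum count 10, minimum total 15; TMM; quasi-likelihood test; Benjamini-Hochberg over 15674 genes, threshold 0.05). DESeq2 1.42.0, limma-voom 3.58.1, other scaling factors and filters, a replicate block and each library left out were alternatives. Positions, exon lengths and shared 50-base stretches come from GENCODE M21 and promoters from RefSeq. The *Pcna* and *Cdk1* windows reach into the annotated genes, and that of *Pcna* is not printed. On simulated counts of 15724 tested genes, edgeR recovered 100% of 4-fold and 65.0% of 2-fold changes, with 8 false calls among 173. The simulation gave every gene the same dispersion. The median SD within a genotype was 0.736 on the log2 scale for mitotic genes and 0.214 over all genes tested. The recovery therefore does not carry over to the mitotic genes. Replicates differed by more than sampling noise.

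The genes, lists, tests and naming rule were chosen with earlier results of these data known. The rule gave per-library values for called genes, the 4 most abundant of each group, *Mki67*, *Top2a*, *Pcna*, *Mcm2*, *Ccnb1*, *Cdk1*, *Foxm1*, *E2f1*, CDK inhibitors, pocket proteins, targeted genes and the 2 most abundant markers of a list. *Uhrf1*, *E2f2*, *E2f8*, *Rrm2*, *Mybl2*, *Pola1*, *Lin9* and *Cdc25b* were added after their values were seen.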

Additional observations from a re-analysis of the deposited data

How the results depend on the processing

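Of 28 fold changes of named genes, 24 kept their direction and side of the threshold under 9 alternatives that kept all libraries. Counted separately, 11 of the 28 did so with each library left out. All genes called ranged from 1281 to 2845 with a library left out and from 2413 to 3374 otherwise. Leaving out a library gave 0 to 4 S-phase genes, 0 to 1 genes among pocket proteins, E2F and MuvB, 0 to 1 further S-phase genes and 0 to 1 further mitotic genes (*Cdc25b*, lower, without L1L2-FF replicate 2). DESeq2's Wald test called 1 G1 gene, *Ccnd3*, and 1 further S-phase gene, *Pola1*. The log2 fold change of *Prc1* was 0.033 by limma-voom and 0.022 with the replicate block, and that of *Rbl2* was -0.011 with library size alone and -0.017 with upper-quartile factors. With a library left out, log2 fold changes ranged from -0.15 to 0.49 for *Ccna2*, -0.10 to 0.50 for *Ccnb1*, -0.18 to 0.44 for *Cdk1*, -0.26 to 0.42 for *Foxm1*, -0.21 to 0.42 for *Top2a*, -0.17 to 0.41 for *Mki67*, -0.44 to 0.16 for *Prc1*, -0.25 to 0.031 for *Cdkn1a*, -0.21 to 0.025 for *Cdkn1b*, -0.10 to 0.22 for *Cdkn2d*, -0.18 to 0.056 for *Rbl1* and -0.12 to 0.14 for *Rbl2*. Fitted fold changes above 0 numbered 17 to 19 of the 25 mitotic genes under other scaling factors, 24 with the replicate block and 25 by limma-voom. The cause was not tested. With 3 libraries per genotype, these data do not settle whether replicate numbers pair the libraries. The deviations of same-numbered libraries correlated at 0.19, 0.26 and -0.05, and those of differently numbered libraries at -0.32 to 0.21. With the replicate block 2514 genes were called in all, 1 S-phase gene, 0 mitotic genes and 3 CDK inhibitors, *Cdkn2b* being added. The lowest count of a cell cycle gene was 41, and the spread between libraries sets the intervals.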
